A study of Mus musculus with 3 samples.

Results

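The genes described here are 9 genes of haematopoietic growth factor signalling, taken by name from the 32285 genes of the deposited count matrices. They are the ligand gene Csf1, its receptor gene Csf1r, the alpha chain genes Csf2ra and Il3ra, the beta chain genes Csf2rb and Csf2rb2, and the receptor genes Csf3r, Flt3 and Kit. All 9 were measured in 3 droplet single-cell RNA libraries of live CD45+ cells sorted from enzymatically digested mouse aortas with their adventitia. CD45, the product of Ptprc, sits on the surface of nearly all white blood cells. The labels give all the mice the ApoE-/- genotype on the C57BL/6J background, a mouse that lacks apolipoprotein E and clears lipoproteins poorly. The Apoe RNA of 1 library goes against this label, as given below. The library labelled Ctrl came from control mice. The library labelled HHcy came from mice whose water held 1.8 g/L homocysteine over 4 weeks. The library labelled WD came from mice on a western diet over 4 weeks. The labels give neither the number of mice in a library nor their age. With 1 library per group, no difference between groups has a replicate check, and every interval below covers counting error only. Both comparisons with Ctrl use the same control library and so are not independent of each other.

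The receptors for colony-stimulating factors pass the signals by which blood cells survive, divide and mature. CSF1R and its close relatives KIT and FLT3 are receptor tyrosine kinases: the ligand pairs the receptors and the kinase inside the cell switches on. CSF1R maintains monocytes and macrophages and is bound by CSF1 and IL-34, FLT3 supports dendritic cells and their precursors, and KIT, the receptor for stem cell factor, supports mast cells and early progenitors. The receptors for GM-CSF and IL-3 have no kinase of their own: a ligand-specific alpha chain joins a shared beta chain that signals through JAK2 and STAT5. In the mouse, Csf2rb encodes the beta chain shared by the GM-CSF, IL-3 and IL-5 receptors, and Csf2rb2 encodes a copy that serves IL-3 alone. CSF3R binds G-CSF and is the growth receptor of the neutrophil lineage. GM-CSF and CSF1 have both been studied in atherosclerotic arteries, where monocytes enter and become macrophages.

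The matrices held 7512 (Ctrl), 9753 (HHcy) and 8557 (WD) cell barcodes. After limits on genes detected, mitochondrial share and doublets, 5356, 6534 and 5447 cells were used, with medians of 7737.5, 6959 and 8561 unique molecular identifiers (UMIs, each a counted RNA molecule) per cell. Doublets, cells with markers of more than 1 lineage, were 11.3%, 19.9% and 18.8% of the cells that passed the other limits. Of the used barcodes, 23, 27 and 22 also occurred in another library. Ptprc had a UMI in 93.7%, 94.3% and 92.7% of used cells. The Apoe check went against 1 label: Apoe stood at 16.3 and 19.3 CPM (UMIs of the gene per 1000000 UMIs) over all barcodes of Ctrl and WD but at 374 in HHcy, and at 28.6, 1249 and 24.7 in macrophage/monocyte-like cells. The groups are therefore called the library labelled Ctrl, HHcy or WD, because the Apoe RNA of HHcy goes against the genotype on its label. In the library labelled HHcy, 187 macrophage/monocyte-like cells had at least 10 Apoe UMIs. The largest class in Ctrl and HHcy was B cell-like (2151, 3584 and 1212 cells), followed by macrophage/monocyte-like cells (1799, 1118 and 2486). Conventional dendritic cell-like cells numbered 429, 278 and 381, neutrophil-like cells 178, 398 and 263, and T cell-like cells 134, 216 and 151. Class and subset names rest on marker lists that hold none of the 9 genes, and the suffix "-like" is left out from here on. Levels are UMIs of the gene over all UMIs of the class on this CPM scale, given in the order Ctrl, HHcy and WD, and are compared between cells for 1 gene at a time. Units with fewer than 20 cells in a library have no value for it. A ratio between libraries was called past the threshold at 1.5-fold in either direction, for genes with at least 20 UMIs in the pair of libraries.

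Csf1r (ENSMUSG00000024621, chr18:61100598-61132149, plus strand, GRCm38), the receptor that macrophages need to survive, was read mainly in macrophage/monocyte cells. Its level there was 720 CPM (95% Poisson interval 706 to 733) in Ctrl, 718 (702 to 734) in HHcy and 656 (646 to 665) in WD. It had a UMI in 92.9%, 94.9% and 95.1% of these cells, against 9.25%, 8.76% and 9.82% of B cells, whose median depth was 7375, 6387.5 and 6654 UMIs beside 7302, 8424 and 9120 in the macrophage/monocyte class. With every cell thinned to 1000 UMIs, the shares were 52.2%, 49.4% and 50.2% of macrophage/monocyte cells and 1.35%, 1.20% and 1.24% of B cells. T cells held 26.6, 24.2 and 25.8 CPM of Csf1r and B cells 12.5, 11.8 and 13.5, and how much of these low levels is free RNA was not tested. Granulocyte-monocyte progenitors followed at 126 CPM in Ctrl and 111 in WD, conventional dendritic cells at 72.1, 78.3 and 118, and neutrophils at 74.5, 65.8 and 94.9. Each of these 3 classes overlapped the next across libraries, and all lay far below the macrophage/monocyte class in each. NK cells, of which there were 27, 21 and 22, read 126, 119 and 342 CPM from 32, 31 and 90 UMIs. The summed macrophage markers of those NK cells were 2759, 4169 and 5586 CPM and their neutrophil markers 66.9, 718 and 2653 CPM, and the part of these markers in the NK values was not tested. The gene overlaps an exon of Hmgxb3 on the opposite strand, which read 14.3, 12 and 14.2 CPM in macrophage/monocyte cells.

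**Figure D1:**
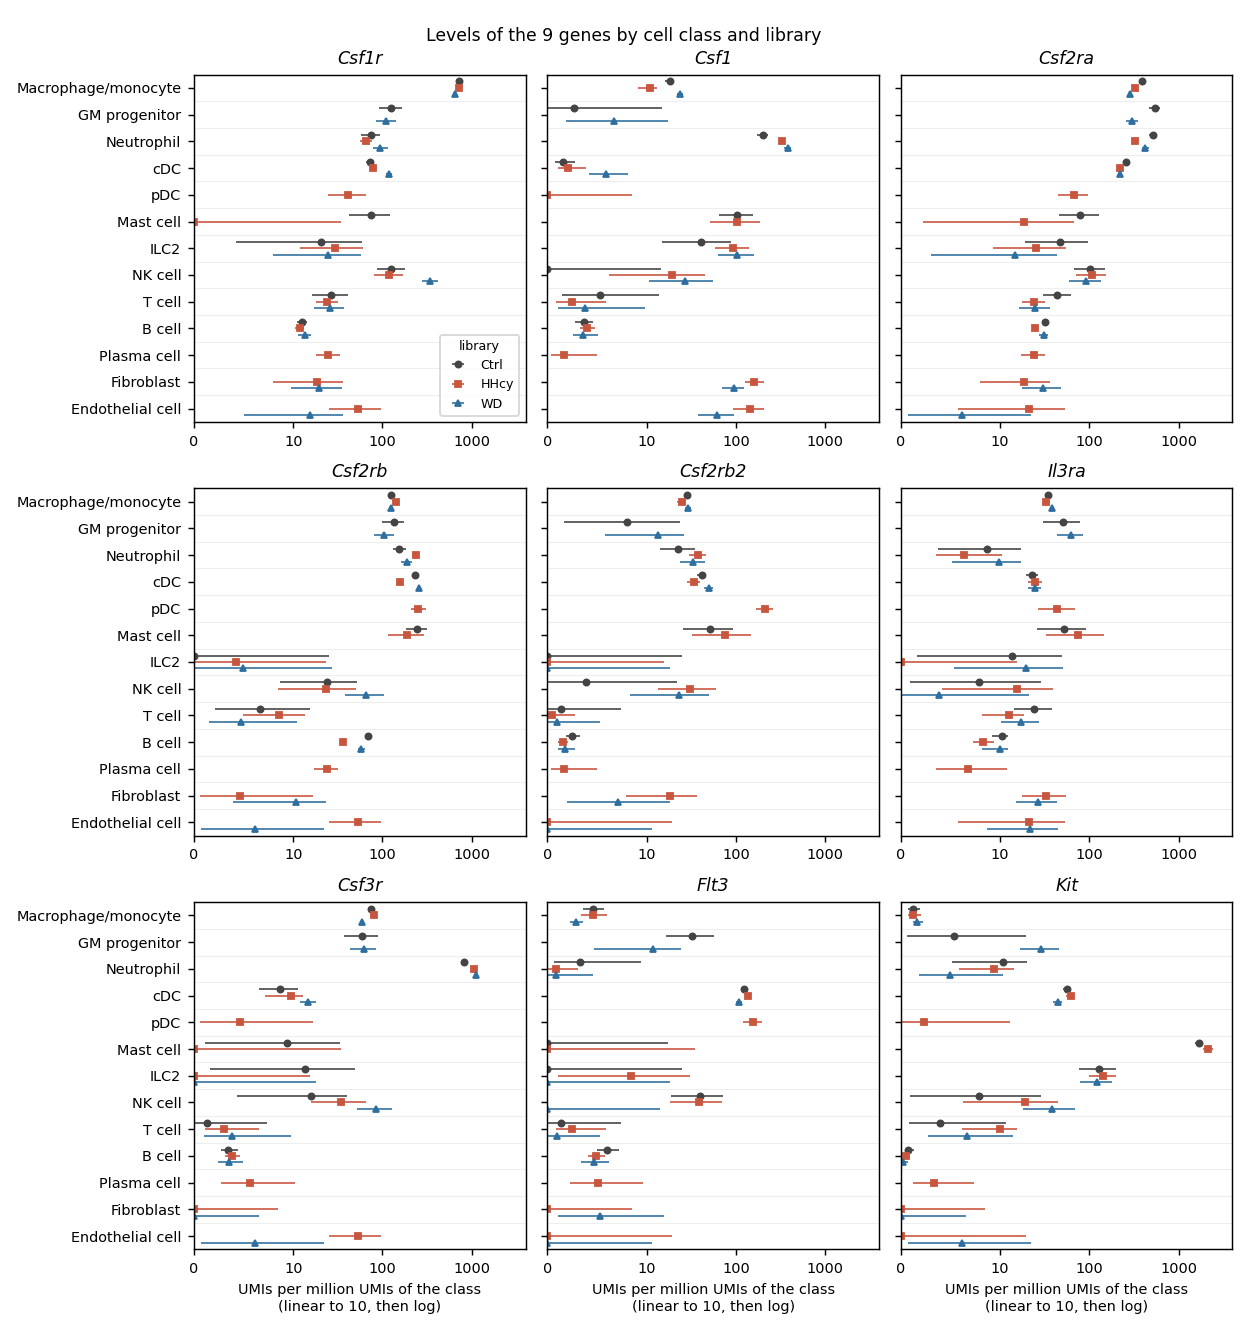
Level of each of the 9 genes (CPM, on an axis that is linear up to 10 and logarithmic above) in each class with at least 20 cells, 1 point per library (Ctrl, HHcy and WD) with its 95% Poisson interval. Csf1r is highest in macrophage/monocyte cells, Csf3r in neutrophils and Kit in mast cells in every library with a value.

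Within the macrophage/monocyte class, Csf1r differed between the subsets. Resident-like macrophages, the Lyve1 and Folr2 cells that live in the artery wall, held 1181, 1324 and 1146 CPM. Non-classical monocytes, which patrol vessels, held 843, 850 and 785 CPM, and classical monocytes, the inflammatory Ly6c2 cells, 627, 495 and 532. Foamy macrophages, led by Spp1, Gpnmb and Pdpn, held 348, 420 and 352 CPM, and the cycling cells 668 in Ctrl and 579 in WD. Within a library, resident-like cells exceeded foamy cells 3.39-fold, 3.15-fold and 3.26-fold, and classical monocytes 1.88-fold, 2.68-fold and 2.15-fold. Cycling cells overlapped classical monocytes, and the other neighbours among these named subsets did not overlap between any libraries. Against Ctrl, classical monocytes of HHcy were lower by a log2 ratio of -0.34 (interval -0.44 to -0.24) and resident-like cells higher by 0.17 (0.09 to 0.24). In the dendritic cells, Csf1r was 116, 115 and 177 CPM in cDC2, the subset that primes helper T cells, and 25.8, 22.2 and 38.4 in cDC1, which cross-presents antigen. The cDC2 level exceeded the cDC1 level 4.49-fold, 5.21-fold and 4.6-fold, so this order held in each library.

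**Figure D2:**
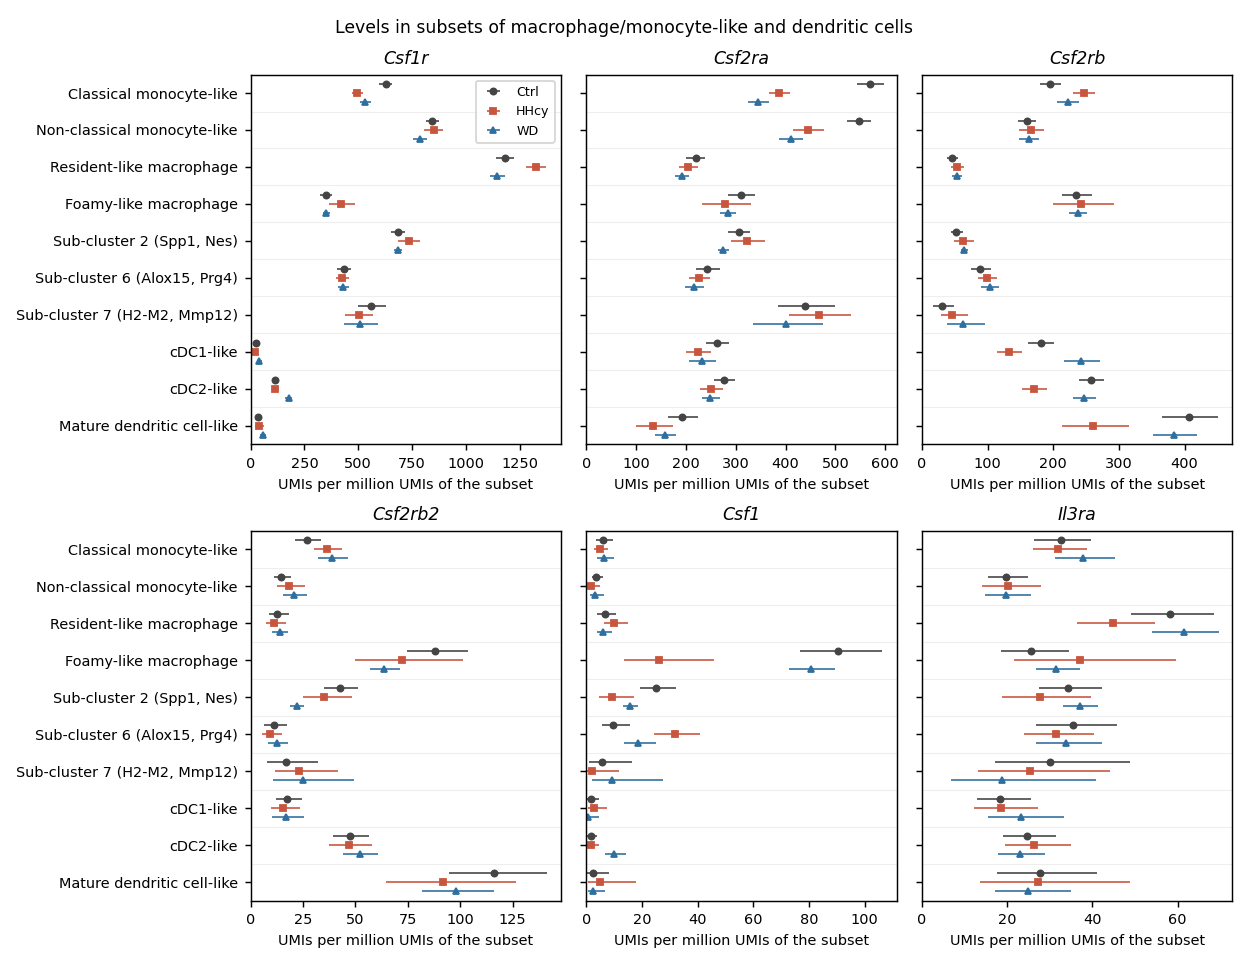
Levels of Csf1r, Csf2ra, Csf2rb, Csf2rb2, Csf1 and Il3ra (CPM, linear axes that differ between genes) in subsets and numbered sub-clusters of macrophage/monocyte and conventional dendritic cells, 1 point per library with its 95% Poisson interval. Csf1r is lower in foamy than in resident-like macrophages, while Csf2rb and Csf2rb2 are higher in foamy than in resident-like cells in all 3 libraries.

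Csf1 (ENSMUSG00000014599, chr3:107741048-107760469, minus strand), the ligand of CSF1R, was highest in neutrophils, at 200 CPM (interval 172 to 231) in Ctrl, 330 (307 to 354) in HHcy and 380 (346 to 416) in WD. Fibroblasts held 161 CPM in HHcy and 94.2 in WD, and endothelial cells 142 and 61.6. These are the wall cells for which CSF1 production is well known, but here they are 46 and 65 fibroblasts and 20 and 28 endothelial cells that passed a CD45 gate. Ptprc had a UMI in 13% and 16.9% of those fibroblasts and in 35.0% and 14.3% of those endothelial cells. Mast cells held 103 CPM in both Ctrl and HHcy. Type 2 innate lymphoid cells (ILC2) held 40.6, 93 and 103 CPM from 6, 22 and 21 UMIs. Fibroblasts, mast cells, endothelial cells and ILC2 overlapped across libraries and could not be ordered. The macrophage/monocyte class as a whole held 18.1, 11 and 23.5 CPM, and B cells 3.64, 3.95 and 3.63.

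In macrophage/monocyte cells, Csf1 RNA sat in few cells. Foamy macrophages read 90.6 CPM in Ctrl, 26.3 in HHcy and 80.8 in WD, from 152, 12 and 384 UMIs in 112, 31 and 272 cells. In Ctrl, 82.2% of the foamy Csf1 UMIs came from 10 cells, and a Csf1 UMI was present in 25%, 12.9% and 26.8% of foamy cells. Resident-like macrophages read 6.60, 9.97 and 6.15 CPM, so the foamy level exceeded them 13.7-fold, 2.63-fold and 13.2-fold. The foamy level of HHcy was below Ctrl by a log2 ratio of -1.79 (interval -2.77 to -0.94). Of the unnamed sub-clusters, that led by Spp1, Apbb2 and Nes read 25.2, 9.25 and 15.6 CPM, and that led by Alox15 and Prg4 read 9.76, 31.9 and 18.6. These sub-clusters thus stood in opposite orders between Ctrl and HHcy, with log2 ratios of -1.45 (-2.57 to -0.48) and 1.71 (0.90 to 2.60).

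Csf2ra (ENSMUSG00000059326, chr19:61223957-61228429, minus strand), the alpha chain that gives the GM-CSF receptor its specificity, was read across the myeloid classes. Neutrophils held 512, 326 and 423 CPM, macrophage/monocyte cells 393 (interval 383 to 403), 323 (313 to 334) and 282 (276 to 288), and conventional dendritic cells 255, 222 and 222. Granulocyte-monocyte progenitors held 543 CPM in Ctrl (21 cells) and 302 in WD (27 cells). The progenitors, neutrophils and macrophage/monocyte cells overlapped across libraries, and dendritic cells lay below them. B cells held 31.8, 24.3 and 30.7 CPM and T cells 43.8, 24.2 and 24.8. At 1000 UMIs per cell, Csf2ra had a UMI in 32.4%, 28.9% and 25% of macrophage/monocyte cells, 45.0%, 29.4% and 33.6% of neutrophils and 2.98%, 2.49% and 3.56% of B cells.

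The Csf2ra level was lower than in Ctrl in most named classes and subsets of both other libraries. In HHcy the log2 ratio was below 0 in 5 of 6 classes with enough UMIs, with the interval below 0 in 5, and in WD in 7 of 7 classes, with the interval below 0 in 5. By subset it was below 0 in 9 of 10 in HHcy and 10 of 11 in WD, with intervals below 0 in 5 and 4. All of these ratios are taken over 1 control library, so they do not count as separate observations. Among the macrophage/monocyte and dendritic subsets the ratios were farthest from 0 in classical monocytes, at 570, 388 and 345 CPM, a log2 ratio of -0.56 (-0.66 to -0.45) in HHcy and -0.72 (-0.84 to -0.61) in WD. Non-classical monocytes held 547, 446 and 410 CPM, foamy macrophages 310, 278 and 284, and resident-like macrophages 220, 204 and 193. Monocytes thus held more Csf2ra than foamy or resident-like macrophages in each library, though the unnamed sub-cluster led by H2-M2 and Mmp12 held 439, 466 and 400. Of these named subsets, the monocytes had the widest gap between libraries. Over the macrophage/monocyte class the log2 ratio was -0.28 (-0.34 to -0.22) in HHcy and -0.48 (-0.53 to -0.43) in WD, neither past 1.5-fold. cDC1, cDC2 and mature dendritic cells held 263, 224 and 233, then 277, 251 and 249, then 192, 134 and 158 CPM.

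Il3ra (ENSMUSG00000068758, chr14:14346275-14356011, plus strand), the IL-3 receptor alpha chain, was sparse. Mast cells held 51.4 CPM in Ctrl and 74.9 in HHcy, from 11 and 8 UMIs, and granulocyte-monocyte progenitors 50.9 in Ctrl and 62.1 in WD. Plasmacytoid dendritic cells, present in number in HHcy alone (36 cells), held 43.7 CPM. Macrophage/monocyte cells held 34.3, 32.4 and 38.1 CPM, conventional dendritic cells 22.8, 24.6 and 24.4, and neutrophils 8.64, 6.41 and 9.90. Mast cells, progenitors and plasmacytoid dendritic cells are the classes for which IL-3 is a textbook growth or survival factor, and they headed the order, though mast cells and progenitors overlapped. B cells held 10.6, 8.27 and 10.1 CPM and T cells 23.9, 12.6 and 17.2, so T cells were near dendritic cells in Ctrl and below them in HHcy and WD. Among macrophage subsets, resident-like cells held 58.2, 44.9 and 61.5 CPM, above non-classical monocytes at 19.8, 20.2 and 19.7 in every library. Cycling cells held 65.3 in Ctrl and 47.0 in WD and overlapped the resident-like cells. Il3ra overlaps an exon of Gm48860 on the opposite strand, for which macrophage/monocyte cells had 0 UMIs in each library.

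Csf2rb (ENSMUSG00000071713, chr15:78325752-78353847, plus strand) and Csf2rb2 (ENSMUSG00000071714, chr15:78282507-78305721, minus strand) are neighbours on chromosome 15 and close copies of each other, and the sequences show how close. Both coding sequences hold an identical run of 242 bases. The stretches below, each in 1 coding exon, give the last 30 bases of that run and the 90 bases after it, where 2 bases in capitals differ (Csf2rb at chr15:78348789-78348908, plus strand, and Csf2rb2 at chr15:78284540-78284659, minus strand, both GRCm38, 5′ to 3′ along the gene):
Csf2rb: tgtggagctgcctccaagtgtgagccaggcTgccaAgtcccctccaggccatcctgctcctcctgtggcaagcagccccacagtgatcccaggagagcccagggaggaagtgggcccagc
Csf2rb2: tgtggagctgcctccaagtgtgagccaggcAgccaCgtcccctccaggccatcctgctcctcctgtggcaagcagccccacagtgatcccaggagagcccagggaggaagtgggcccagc
Of all 50-base windows, 18.4% of the Csf2rb transcript and 19.0% of the Csf2rb2 transcript occurred in the other gene. The last 1000 bases of these full-length transcripts, where reads of this 3′ assay gather, shared 0 windows. Shorter annotated transcripts of each gene do share windows there, so reads from those could be lost or placed on the other gene.

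Csf2rb was read in several myeloid classes. Conventional dendritic cells held 232 CPM (interval 220 to 244), 158 (147 to 170) and 255 (243 to 268). Plasmacytoid dendritic cells held 253 CPM in HHcy, mast cells 243 in Ctrl and 187 in HHcy, and neutrophils 154, 236 and 186. Conventional dendritic cells overlapped both plasmacytoid dendritic cells and mast cells across libraries, and mast cells overlapped neutrophils. Macrophage/monocyte cells held 126, 143 and 123 CPM and progenitors 134 in Ctrl and 104 in WD. T cells held 6.64, 8.55 and 4.78 CPM, with a UMI in 0.746%, 5.56% and 3.31% of cells at median depths of 4054, 6256 and 5141 UMIs, and ILC2 0, 4.23 and 4.91 CPM, where the count of 0 allows a level of up to 20.3 CPM. Within dendritic cells the mature subset, the Ccr7 cells that migrate to lymph nodes, read 406, 260 and 384 CPM, above cDC2 at 258, 171 and 247 and cDC1 at 181, 132 and 242 in each library. HHcy was the lowest library in all 3 dendritic subsets, with log2 ratios to Ctrl of -0.64 in mature cells, -0.59 in cDC2 and -0.45 in cDC1, and -0.55 (-0.68 to -0.42) over the class. In macrophages Csf2rb was the reverse of Csf1r. Foamy cells held 235, 243 and 238 CPM and resident-like cells 45.8, 53.0 and 53.3, a gap of 5.14-fold, 4.58-fold and 4.46-fold. Classical monocytes held 196, 246 and 222 and non-classical monocytes 160, 166 and 162 CPM.

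B cells also carried Csf2rb, at 68.7 CPM (interval 64.9 to 72.5), 36.3 (34.1 to 38.6) and 58.0 (53.3 to 63.0). At 1000 UMIs per cell it had a UMI in 4.42%, 2.51% and 3.56% of B cells against 0.794%, 0.939% and 1.33% of T cells. The signal was uneven among B cells. The B sub-clusters with high S100a6, numbered 2 and 3, held 101, 105 and 109 CPM and 93.1, 87.7 and 77.6 CPM. The naive follicular sub-cluster 0, led by Fcer2a and Ighd, held 12.4, 11.6 and 12.6. Sub-cluster 2 stood above sub-cluster 0 by 8.14-fold, 9.05-fold and 8.68-fold, while its level differed little between libraries. Il5ra, the IL-5 receptor alpha chain that pairs with this beta chain, followed the same split, at 87.3, 91.2 and 79.2 CPM in sub-cluster 2 and 15.1, 9.84 and 11.9 in sub-cluster 0. Sub-clusters 2 and 3 made up 49.7% of B cells in Ctrl, 17.9% in HHcy and 36.9% in WD. With the sub-clusters of HHcy weighted as in Ctrl, the log2 ratio of Csf2rb in B cells moved from -0.92 to 0.00, and that of Csf2rb2 from -0.70 to 0.04.

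Csf2rb2 was read in fewer cells. Plasmacytoid dendritic cells of HHcy held 209 CPM (interval 169 to 257), with a UMI in 77.8% of the 36 cells. Mast cells held 51.4 in Ctrl and 74.9 in HHcy, conventional dendritic cells 41.4, 33.7 and 49.5, macrophage/monocyte cells 28.6, 24.7 and 29, and neutrophils 22.7, 37.2 and 33.0 CPM. B cells held 2.50, 1.53 and 1.76 CPM, T cells at most 1.33, and ILC2 had 0 UMIs in each library, which allows levels of up to 20.3, 12.7 and 14.7 CPM. Its subset order matched that of Csf2rb at the top. Mature dendritic cells held 116, 91.7 and 97.9 CPM, which was 6.71-fold, 5.84-fold and 5.83-fold above cDC1, and foamy macrophages 88.2, 72.2 and 63.8, which was 6.90-fold, 6.37-fold and 4.61-fold above resident-like cells. Foamy cells of WD were below Ctrl by -0.47 (-0.76 to -0.17) on the log2 scale. Across the 13 named classes, the log2 levels of Csf2rb and Csf2rb2 had a Pearson correlation of 0.82, given as a description of classes that share the same libraries.

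A working GM-CSF receptor needs the Csf2ra and Csf2rb chains in 1 cell, while Csf2rb2 serves IL-3 alone. The full-depth shares below count either beta chain gene. They include cells whose only beta chain UMI was of Csf2rb2, so the share with Csf2rb itself is at most as high. At full depth, a Csf2ra UMI together with a Csf2rb or Csf2rb2 UMI was found in 71.9%, 85.9% and 79.0% of classical monocytes, 77.7%, 80.6% and 83.1% of foamy macrophages and 17.4%, 21.5% and 22.8% of resident-like macrophages. The share was 71.3%, 65.5% and 76.4% in conventional dendritic cells and 41.0%, 52.0% and 44.1% in neutrophils. T cells gave 0.746%, 1.85% and 0.662%, and B cells 9.48%, 4.10% and 6.85%. Foamy macrophages and conventional dendritic cells were deep, with medians of 14279, 14857 and 15475.5 and of 14220, 15327.5 and 16453 UMIs per cell. At 1000 UMIs per cell, Csf2ra with Csf2rb was seen in 6.17%, 6.05% and 3.75% of classical monocytes, where the product of the separate shares is 6.27%, 6.48% and 5.30%. At 2000 UMIs per cell the shares were 24.3%, 24.6% and 20.4% and the products 24.1%, 22.6% and 16.7%, so the order of share and product turned with depth. Il3ra with a beta chain was seen at full depth in 47.6% of progenitors in Ctrl and 48.1% in WD, and in 4.56%, 1.84% and 3.71% of B cells.

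Csf3r (ENSMUSG00000028859, chr4:126024550-126044440, plus strand), the G-CSF receptor, belonged to neutrophils, at 824 CPM (interval 767 to 885), 1068 (1026 to 1111) and 1110 (1051 to 1171), with a UMI in 82.6%, 93% and 90.1% of cells. B cells had a Csf3r UMI in 2.84%, 2.93% and 2.72%. Macrophage/monocyte cells held 74.6, 80.7 and 58.3 CPM, and progenitors 58.9 in Ctrl and 62.1 in WD. At 1000 UMIs per cell the neutrophil shares were 52.6%, 64.5% and 65.6%. Within the macrophage/monocyte class, classical monocytes held 116, 115 and 97.5 CPM, non-classical monocytes 108, 95.1 and 103, foamy cells 35.8, 52.5 and 47.8 and resident-like cells 40.0, 42.6 and 45.8. Monocytes were above both macrophage subsets in each library. The unnamed sub-cluster led by Alox15 and Prg4 read 124, 110 and 107 CPM, as high as the monocytes. The macrophage/monocyte cells also held summed neutrophil markers of 187, 2217 and 353 CPM, with 0 of 10 markers at 0, and the part of these in the Csf3r values was not tested.

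Neutrophils were not uniform for these genes. Sub-cluster 0, led by Tnfsf14, Csf1 and Il1rn, held Csf3r at 1782, 1710 and 1753 CPM, nearly the same in the 3 libraries. Sub-cluster 1, led by Krt83 with the granule genes Ltf and Ngp, held 294, 260 and 284 CPM, and the step between them was 6.06-fold, 6.57-fold and 6.18-fold. Sub-cluster 0 made up 50%, 46.2% and 69.6% of neutrophils and sub-cluster 1 31.5%, 18.1% and 15.2%. Sub-cluster 2, led by Lipg and Gbp2, made up 2.81%, 33.4% and 8.75%. With the mix of Ctrl, the log2 ratio of Csf3r over all neutrophils moved from 0.37 to -0.09 in HHcy and from 0.43 to -0.04 in WD. Csf1 was split the same way, at 519, 852 and 664 CPM in sub-cluster 0 and 6.26, 5.10 and 58.3 in sub-cluster 1, where WD had 15 UMIs. Inside sub-cluster 0 the log2 ratio of Csf1 to Ctrl was 0.72 (0.48 to 0.96) in HHcy and 0.36 (0.10 to 0.62) in WD. Because the sub-clusters were made from the same cells, these levels describe them and test nothing. Csf2ra did not share the step, at 493, 353 and 388 CPM in sub-cluster 0 and 573, 393 and 521 in sub-cluster 1.

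**Figure D3:**
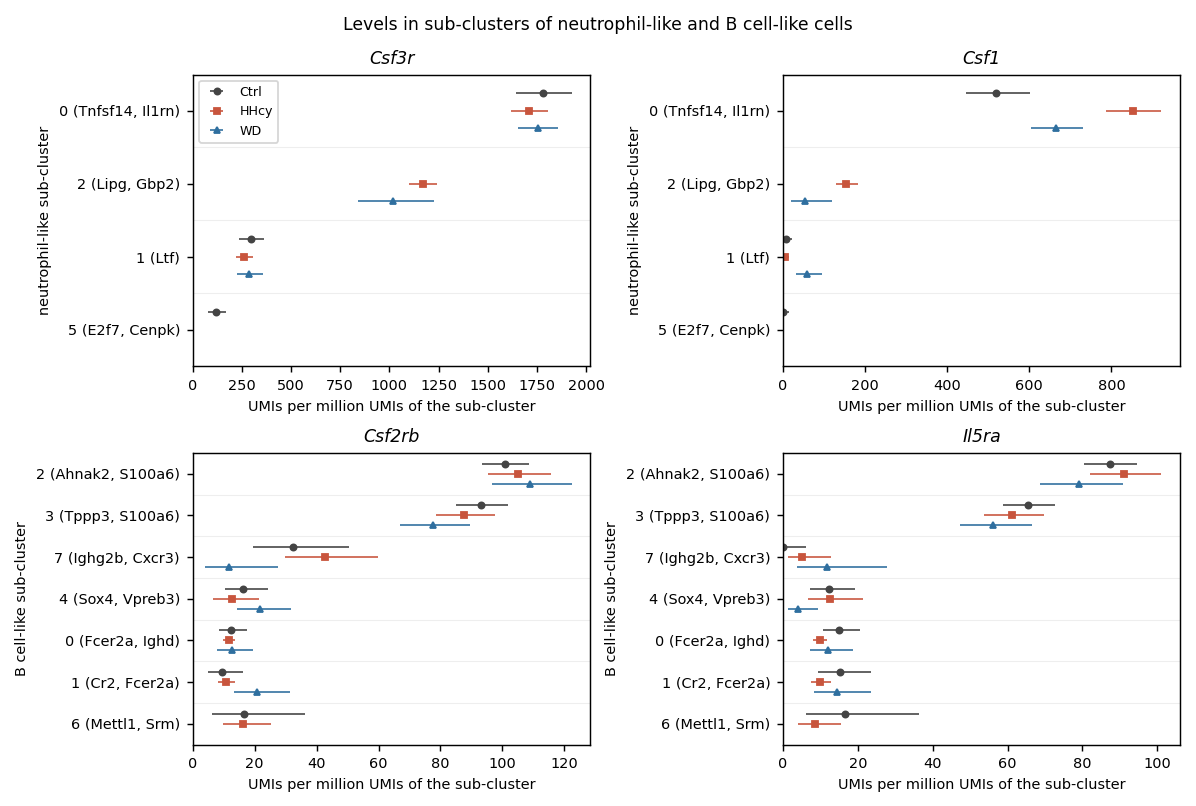
Levels (CPM, linear axes) of Csf3r and Csf1 in numbered sub-clusters of neutrophils and of Csf2rb and Il5ra in those of B cells, for sub-clusters with at least 20 cells, 1 point per library with its 95% Poisson interval. Csf2rb is high in B sub-clusters 2 and 3, and Csf3r and Csf1 are high in neutrophil sub-cluster 0, at similar levels of Csf3r in all 3 libraries.

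Flt3 (ENSMUSG00000042817, chr5:147330741-147400489, minus strand), the receptor that dendritic cells depend on, was read at 124 CPM (interval 116 to 133), 136 (125 to 146) and 108 (100.2 to 116) in conventional dendritic cells, in 67.1%, 71.9% and 64.3% of them. Plasmacytoid dendritic cells of HHcy held 154 CPM. Progenitors held 32.1 in Ctrl and 11.7 in WD, B cells 6.02, 4.92 and 4.67, and neutrophils 3.24, 0.855 and 0.825 CPM. NK cells had 10, 10 and 0 UMIs of Flt3. Dendritic cells thus stood apart for this gene in each library. cDC1 held 152, 151 and 155 CPM, the same within counting error in the 3 libraries. cDC2 held 103, 150 and 90.4 CPM, so the HHcy value alone reached that of cDC1, with a log2 ratio to Ctrl of 0.54 (0.29 to 0.79). Mature dendritic cells held 150, 131 and 113. Classical monocytes read 6.16, 11.7 and 3.59 CPM, from 18, 38 and 11 UMIs.

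Kit (ENSMUSG00000005672, chr5:75574916-75656722, plus strand), the stem cell factor receptor, was highest in mast cells, at 1695 CPM in Ctrl (35 cells) and 2154 in HHcy (24 cells), with a UMI in every one of these cells. ILC2 held 129, 144 and 123 CPM and conventional dendritic cells 55.8, 61.5 and 44.5, and none of these 3 classes overlapped another. Macrophage/monocyte cells held 1.20, 1.23 and 1.65 CPM, B cells 0.760, 0.534 and 0.208, and fibroblasts of HHcy and WD had 0 UMIs, which allows up to 6.92 and 5.33 CPM. A Kit UMI was found in 46.2%, 42.9% and 35.3% of ILC2 and in 41.7%, 45.0% and 33.6% of dendritic cells. cDC1 held 67.3, 74.3 and 67.2 CPM, cDC2 48.7, 60.4 and 44.6, and mature dendritic cells 40.3, 52.1 and 17.3. The mature cells of WD were lower than those of Ctrl by a log2 ratio of -1.22 (-2.04 to -0.42), from 35 and 23 UMIs.

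The 9 genes were also compared between libraries in the 4 largest classes, beside the share of all genes past 1.5-fold. In macrophage/monocyte cells, 1 of 9 was past it in HHcy, where 10.9% of 12276 genes were, and 1 of 9 in WD, where 12.2% of 12911 were. These were Csf1 in HHcy, lower by -0.72 (-1.03 to -0.41) on the log2 scale, and Flt3 in WD, lower by -0.68 at a trace level. The Csf1 call in HHcy was lost under 6 of the alternative settings and turned to 1.01 when cells were named singly from their own marker UMIs. The median log2 ratio was -0.00 over the 9 genes and -0.05 over all genes in HHcy, and -0.03 and -0.01 in WD. The Csf1r ratio in WD was -0.13 (-0.17 to -0.10). Foamy macrophages made up 6.23%, 2.77% and 10.9% of the macrophage/monocyte class in Ctrl, HHcy and WD. The sub-cluster led by Spp1, Apbb2 and Nes made up 12.7%, 10.4% and 30.7%. In B cells, 2 of 9 were past 1.5-fold in HHcy, both lower, where 15.6% of 12171 genes were, and 0 of 8 in WD, where 8.76% of 11554 were. Those were Csf2rb at -0.92 (-1.04 to -0.80) and Csf2rb2 at -0.70 (-1.34 to -0.07), with the sub-cluster shares given above. The median over the 9 genes was -0.36 against -0.03 over all genes in HHcy, and -0.07 against 0.02 in WD.

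In conventional dendritic cells, 0 of 9 were past 1.5-fold in HHcy, where 15.3% of 10809 genes were, and 3 of 9 in WD, all higher, where 13.3% of 10965 were. The median log2 ratio was 0.12 over the 9 genes and 0.08 over all genes in HHcy, and 0.14 and -0.01 in WD. Csf1r was higher by 0.72 (0.55 to 0.88), Csf3r by 0.77 (0.28 to 1.27) from 57 and 97 UMIs, and Csf1 by 1.97 (0.94 to 3.13) from 10 and 39 UMIs. The summed macrophage markers of these cells were 1334, 1756 and 1858 CPM and the neutrophil markers 367, 546 and 511, with 0 of 16 and 0 of 10 markers at 0, and their part in these ratios was not tested. The sums include Clec4a3 (macrophage list) and Il1r2 (neutrophil list), which were among the leading genes of cDC2 itself. The Csf1r ratio fell within 1.5-fold, at 0.43 to 0.53, under 6 alternatives. With cells named singly in that way, none of the 3 stayed past it, at 0.43 for Csf1r, 0.25 for Csf3r and 0.56 for Csf1. In cDC2 alone it was 0.61 (0.41 to 0.82), and Csf1 there had 4 UMIs in Ctrl and 31 in WD, or 1.55 and 10.0 CPM. In cDC1 alone, Csf2rb was higher in WD by 0.42 (0.20 to 0.65).

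In neutrophils, 4 of 8 were past 1.5-fold in HHcy, 3 higher and 1 lower, where 39.9% of 6604 genes were, and 1 of 7 in WD, where 25.5% of 6002 were. The median of all genes stood at -0.26 in HHcy, so ratios there are also given against that median. Csf1 was higher by 0.72 (0.49 to 0.96), or 0.99 against the median, Csf2rb by 0.61 (0.34 to 0.89), or 0.87, and Csf2rb2 by 0.71 (0.01 to 1.47), or 0.98. Csf2ra was lower by -0.65 (-0.82 to -0.48), or -0.39 against the median, which is within 1.5-fold. In WD, Csf1 was higher by 0.93 (0.68 to 1.18). The median over the tested members of the 9 was 0.10 in HHcy and 0.35 in WD, where all genes stood at -0.26 and -0.04. With the sub-cluster mix of Ctrl, Csf1 stood at 0.69 in HHcy and 0.47 in WD, and in HHcy Csf2rb stood at 0.18, Csf2rb2 at 0.41 and Csf2ra at -0.57, all 3 then within 1.5-fold. The share of these genes past the threshold is near that of all genes, and the summed macrophage markers of the neutrophils moved too, at 2371, 3627 and 3057 CPM with 0 of 16 markers at 0, a part that was not tested.

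**Figure D4:**
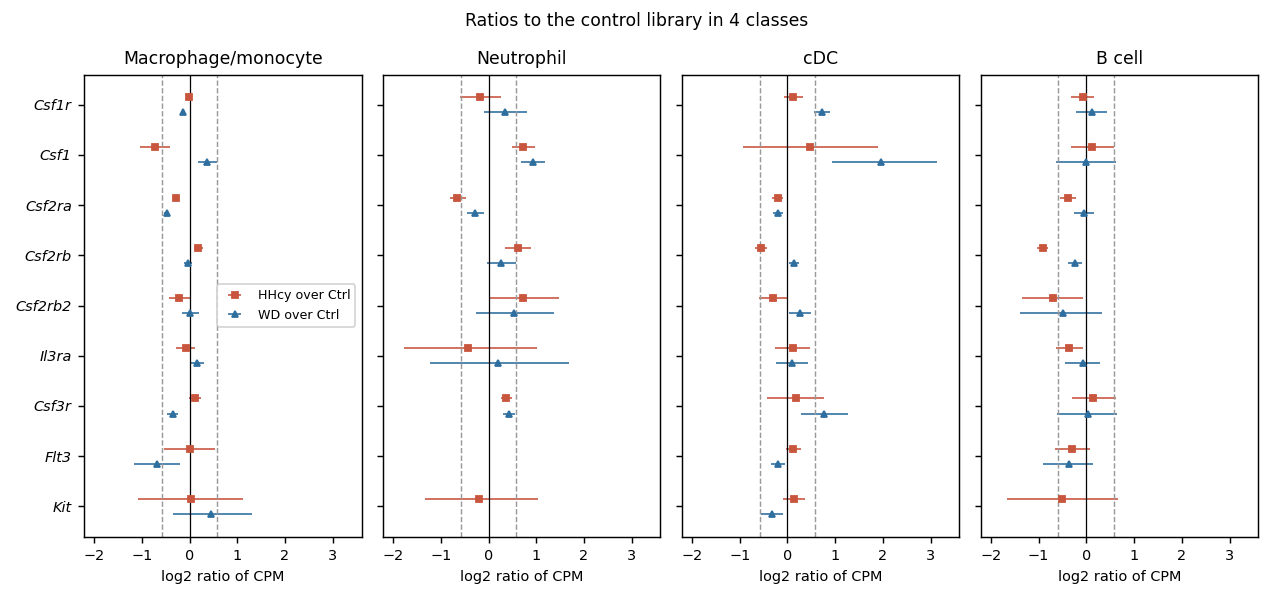
Log2 ratio of HHcy and of WD to Ctrl for each of the 9 genes in 4 classes, with 95% intervals for counting error and the 1.5-fold limits as lines. Csf2ra lies below 0 in both comparisons in macrophage/monocyte cells, dendritic cells and neutrophils, and both comparisons share the control library.

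The other genes of these pathways were taken from 5 lists of 51 genes. Among ligands, Csf2, which encodes GM-CSF, was read mainly in ILC2, at 900, 790 and 972 CPM in 61.5%, 51.4% and 41.2% of 26, 35 and 34 cells. NK cells of HHcy held 418 CPM of Csf2, from 109 UMIs in 14.3% of 21 cells, with 0 UMIs in Ctrl and WD, which allows up to 11.8 and 11.4 CPM of Csf2. Il5 stood at 115, 355 and 211 CPM in ILC2, but it is in the marker list that named ILC2, so this place follows in part from the naming. Kitl, which encodes stem cell factor, was read in resident-like macrophages at 71.4, 68.0 and 57.6. Csf3, which encodes G-CSF, was read in classical monocytes at 9.25, 31.3 and 17.0 CPM. Flt3l, the FLT3 ligand gene, was highest in ILC2, at 60.9, 46.5 and 39.3 CPM from 9, 11 and 8 UMIs, and in T cells, at 51.8, 25.7 and 37.3. Il3 had 0 UMIs in every class with at least 20 cells, which in macrophage/monocyte cells allows up to 0.190, 0.265 and 0.110 CPM of Il3, and Il34 had at most 3 UMIs.

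In macrophage/monocyte cells, 2 of 4 ligand genes with enough UMIs were higher past 1.5-fold in HHcy and 2 of 4 in WD. Of all genes in these cells, 5.16% were higher and 5.70% lower past it in HHcy, and 6.44% and 5.77% in WD. These were Csf2, with 2, 33 and 43 UMIs, and Csf3, with 32, 128 and 87 UMIs. Of the related receptors, 1 of 4 was higher and 2 lower in HHcy, and 0 higher and 1 lower in WD. Il7r, the IL-7 receptor alpha chain, was lower in HHcy, at 54.1 CPM in Ctrl and 17.7 in HHcy (log2 ratio -1.61, -1.84 to -1.39), and was 65.0 in WD. It was among the leading genes of foamy macrophages, which made up 6.23%, 2.77% and 10.9% of the class. The part of these shares in the Il7r values was not tested. Of 13 JAK-STAT genes, 0 were higher and 1 lower in HHcy, with a list median of -0.15, and 1 higher and 0 lower in WD, with a median of -0.14. In both cases the gene was Socs2, a feedback inhibitor that cytokine signals induce, at -0.62 in HHcy and 0.60 in WD. Of 14 kinase adaptors and effectors, 0 passed in HHcy, with a median of -0.13, and Cblb, a ubiquitin ligase that restrains receptor signals, was lower by -0.78 (-0.91 to -0.66) in WD. Of 9 transcription factors, 1 was higher in HHcy, and 1 was higher and 1 lower in WD: Cebpe, a granulocyte factor, was higher by 1.89 and 1.14 in cells whose summed neutrophil markers were 187, 2217 and 353 CPM, a part that was not tested, and Myb was lower by -0.61 in WD. The list medians were -0.16 and -0.02. In B cells of HHcy, 5 of 13 JAK-STAT genes, 3 of 14 adaptors and 2 of 8 transcription factors were lower and none higher, where 9.45% of all genes were lower, and in WD 0 passed in any of these lists. The B cells of HHcy also had the smaller share of sub-clusters 2 and 3 given above, and its part in these lists was not tested.

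The genes whose log2 levels across the 13 classes were most like each of the 9 were, for Csf1r, the Fc receptor gene Fcgr1 (Pearson r 0.96), Adgre1 (0.95) and Clec4a1 (0.94). For Csf2ra they were Card9 (0.97), Arl11 (0.94) and Ogfrl1 (0.94), and for Csf2rb I830077J02Rik (0.94), Pirb (0.90) and Nfam1 (0.90). Csf2rb2 was most like Usp18 (0.95), Nek6 (0.93) and I830077J02Rik (0.91). For Csf3r they were Hcar2 (0.99), Clec4d (0.99) and Acod1 (0.98), for Flt3 Clec9a (0.97), Gm43914 (0.97) and Mycl (0.93), and for Kit Gchfr (0.94), Il4 (0.93) and Chn2 (0.92). Il3ra was most like 4931406C07Rik (0.93), and Csf1 had the weakest leading match of the 9, Dubr (0.88). Among the 9 genes themselves, Csf1r and Csf2ra reached 0.77 and Csf3r and Csf2ra 0.73. These correlations describe 13 classes that share libraries, with some classes of few cells, and 12207 genes were compared. Fcgr1 and Adgre1 are in the marker list that named macrophage/monocyte cells, and Clec9a is in that of conventional dendritic cells. Clec4a1 is in the phagocyte list of the doublet rule. The match of these genes therefore follows in part from how the classes were made.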

How the data were processed

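The authors deposited 1 filtered gene-by-barcode matrix of UMI counts per library, made from 10x Genomics 3′ v3 libraries. The submitters' processing notes name Cell Ranger 2.2.0 and mm10, while the file headers name Cell Ranger 4.0.0, and which version made the counts is not given otherwise. The 9 genes, the marker lists and the 5 pathway lists were chosen with earlier results of these data known, and the limits for naming clusters were set after the data were examined.

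From these deposited counts, cells with at least 200 genes and at most 10% mitochondrial UMIs were kept. Cells with at least 3 markers of a second lineage, summing to over 0.15 of that lineage's median, were removed as doublets. Macrophage and neutrophil markers counted as 1 phagocyte lineage, and dendritic cells had no list. Doublets of macrophages, neutrophils and dendritic cells with each other were therefore not removed by this rule. Cells of the 3 libraries were clustered together (2000 variable genes without the 9 genes, 30 components, 20 neighbours, Leiden resolution 1.0, seed 1, and 0.5 within a class). A cluster was named from marker lists without the 9 genes. A sub-cluster with at least 3 markers of another lineage among its 30 leading genes then lost its class name. This took out 138, 110 and 295 macrophage/monocyte cells in Ctrl, HHcy and WD. It also took out neutrophil sub-clusters of 36, 80 and 42 and of 18, 48 and 83 cells, and some B and dendritic cells. Cells without a class name, these included, numbered 524, 681 and 747 in Ctrl, HHcy and WD. Counts were summed per class and library and divided by the summed UMIs. Levels have exact Poisson intervals and ratios exact conditional binomial intervals, all at 95% and for counting error only, and a count of 0 was given the limit of 3 counts. There is 1 library per group, so no p-value was computed. For shares at equal depth, each cell was thinned to 1000 UMIs, leaving out 102, 113 and 123 shallower cells. Likeness was the Pearson correlation of log2(CPM + 10) over genes with at least 200 UMIs. The named genes were all 9 genes in each unit with at least 20 cells, at most 3 genes per list and comparison by size of change, all ligands, and the 3 most alike genes for each of the 9. Gene positions come from GENCODE M21 (GRCm38, the mm10 build). The count comparison was checked on simulated data with counting error only. That check held no variation between libraries, cells or sub-clusters, so it does not cover them. Python 3.11.15, numpy 2.4.6, scipy 1.17.1, pandas 2.3.3, scikit-learn 1.9.0, python-igraph 0.11.9, leidenalg 0.10.2 and matplotlib 3.10.9 were used. The alternatives tried were 16 changes of cell limits, clustering, naming, thinning, weighting and scaling. The sub-cluster mix of Ctrl used every sub-cluster with cells in both libraries, also those of fewer than 20 cells.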

Additional observations from a re-analysis of the deposited data

Results flagged for a closer look

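In 3 genes the library labelled HHcy stood past 1.5-fold above the library labelled Ctrl in some classes and past 1.5-fold below it in others. The difference between the classes was not tested, since each group is 1 library. Csf1 had a log2 ratio of 1.20 in ILC2, which rests on 6 and 22 UMIs, of 0.72 in neutrophils and of -0.72 in macrophage/monocyte cells. Csf2rb had a ratio of 0.61 in neutrophils and -0.92 in B cells, which the sub-cluster mix of Ctrl took to 0.18 and 0.00. Csf2rb2 had a ratio of 0.71 in neutrophils and -0.70 in B cells, from 21 to 87 UMIs per library and class, and the same mix took these to 0.41 and 0.04.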

How the results depend on the processing

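The main log2 ratios were those of Csf1r, Csf2ra, Csf2rb and Csf1 in macrophage/monocyte cells. Csf3r, Csf2ra and Csf1 in neutrophils and Flt3 in dendritic cells were also among them. Each was recomputed under each alternative. Of these values, 152 stayed within counting error, 39 moved further and 1 changed sign from a ratio past 1.5-fold. For the other ratios, 568 values stayed, 52 moved and 2 changed sign in that way, Csf2rb and Csf2rb2 in B cells of HHcy. Leaving out cells whose barcode occurs in another library, an alternative added after seeing the data, changed none. In macrophage/monocyte cells of HHcy, Csf1 stood at -0.38 with doublets kept, -0.35 with each library clustered on its own, -0.17 thinned and 1.01, the change of sign, by own markers (cells named singly from their own marker UMIs). Csf1r stood at -0.050 with doublets kept, 0.088 as a mean over cells, -0.10 without Apoe-high cells and 0.046 after median scaling. Csf2ra stood at -0.36, -0.35 and -0.21 under the first 3 of these, and Csf2rb at 0.058 with doublets kept, 0.072 thinned and 0.29 without Apoe-high cells. In WD, Csf1 stood at 0.60 thinned and -0.12 with the sub-cluster mix of Ctrl, Csf1r at -0.10 with doublets kept, -0.076 thinned and -0.083 with the Ctrl mix, Csf2ra at -0.37 with that mix, and Csf2rb at -0.13 thinned and 0.11 with that mix. The count of the 9 genes past the fold, 1 in HHcy, was 0 at 2-fold, with 20% mitochondrial UMIs allowed, with doublets kept, at Leiden resolution 2, thinned or as a mean over cells, and 2 by own markers. The count of 1 in WD was 0 at 2-fold and 2 at Leiden resolution 2, thinned or as a mean over cells. In neutrophils of HHcy, Csf1 stood at 0.45 by own markers and 0.45 as a mean over cells, and at 0.99 after median scaling, Csf2ra at -0.39 after scaling, and Csf3r at 0.23 by own markers, 0.10 thinned, -0.086 with the Ctrl mix and 0.64 after scaling. In WD, Csf1 stood at 0.58 by own markers, 0.51 as a mean over cells and 0.47 with the Ctrl mix, and Csf3r at 0.30 by own markers and -0.043 with that mix. The neutrophil count of 4 in HHcy was 0 at 2-fold, 2 with the Ctrl mix or by own markers, and 1 thinned or as a mean over cells. The count of 1 in WD was 0 at 2-fold, with the Ctrl mix, by own markers or as a mean over cells, 2 with doublets kept or libraries clustered separately, and 3 with 20% mitochondrial UMIs or with genes of at least 1 UMI included. In dendritic cells, Flt3 stood in HHcy at -0.10 with separate clustering, -0.10 by own markers and -0.063 thinned, and in WD at -0.49 with separate clustering and -0.37 by own markers. In B cells of HHcy, the Ctrl mix took Csf2rb to 0.00071 and Csf2rb2 to 0.037. The causes of these shifts were not tested, beyond what each alternative changes by its construction.

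The B1 name among B cells did not hold under other settings, so B cells were described by sub-cluster number. Levels of foamy macrophages and neutrophils depend on which cells carry the name: Csf1 in foamy cells of Ctrl lay between 37.4 and 97.3 CPM over all settings. Classes of 20 to 36 cells have few UMIs, and their order is limited by depth. No paired analysis was possible because each group has 1 library.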

Other observations

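An unnamed cluster of 78, 45 and 48 cells (Ctrl, HHcy and WD), led by Hr, Retnla, Lyz1 and Aldh1a2, had high GM-CSF receptor RNA. Csf2ra stood there at 643, 680 and 624 CPM, Csf2rb at 230, 203 and 242, and Csf1r at 211, 239 and 254. Csf2ra in this cluster was above its level in classical monocytes in each library. Kit and Flt3 were nearly absent, with 3, 0 and 0 UMIs of Kit and 6, 1 and 0 UMIs of Flt3.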
